A study of Mus musculus with 8 samples.

Results

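Kallikreins are secreted serine proteases encoded side by side on mouse chromosome 7. The 10 kallikrein genes described here were Klk1, Klk1b3, Klk1b4, Klk1b5, Klk1b8, Klk1b22, Klk1b26, Klk1b27, Klk6 and Klk10, out of 27 Klk genes and 31894 genes in the count table. They were chosen by name around Klk1b3, which was picked for one of the largest increases in E-cadLO over E-cadHI tumor cells. The comparison of E-cadLO with E-cadHI therefore helped to choose them, and their values are given as a description, without a test.

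The libraries came from breast cancer brain metastases (BCBM) in FVB mice. The tumors derived from PyMT E-cad-mCFP mice, in which the polyoma middle-T antigen is driven by the mouse mammary tumor virus promoter and E-cadherin carries the cyan fluorescent protein mCFP. Tumor tissue had been passaged serially through the brain, and organoids were then derived from it. In the paper, BCBM are the tumors that grew after cells of these organoids were injected into the brain. The paper describes its BCBM cells as expressing the nuclear fluorescent marker H2B-Dendra2. E-cadHI cells (high E-cad-mCFP) and E-cadLO cells (E-cad-mCFP lost) were sorted from the tumors of 4 mice, numbered 57, 58, 67 and 70, by fluorescence, so each group holds 4 libraries of mRNA and each mouse gave 1 library per group. All mice were labelled FVB and wild type, with no treatment in the labels. The study's methods describe female recipients that received the tumor cells as adults. The purity of the E-cadLO sort itself was not measured, since that population yielded too little material and E-cadHI cells served as the control. From its purity check the paper proposes an upper limit of a few percent on contamination. It also reports imaging of both sorted populations as evidence of their separation.

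Total counts ran from 9102781 to 15769200 per library. Levels are given as CPM, counts scaled to the size of the library after TMM normalization, in which a floor of 3 counts corresponded to between 0.201 and 0.348 CPM. Cdh1, which encodes E-cadherin, lay between 93.2 and 132 CPM in the E-cadHI libraries and between 59.0 and 181 CPM in the E-cadLO libraries, so the groups overlapped for the transcript of the sorted protein. The summed level of 10 epithelial tumor markers ranged from 7557 to 10150 CPM in E-cadHI and from 5585 to 14000 CPM in E-cadLO. A single gene, Gm42418, took 14.4% of the counts of the E-cadLO library of mouse 58.

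Tissue kallikrein, the product of Klk1, releases kinins from kininogens. In mice, this gene has been copied many times, and the Klk1b copies are best known from the male submandibular salivary gland. Klk1b3 encodes an active protease, while the product of Klk1b4 lacks protease activity. Klk1b22 and Klk1b26 are known as a binding protein of epidermal growth factor and a prorenin-converting enzyme, respectively. Klk6, or neurosin, is made by oligodendrocytes in the nervous system, and Klk10 was first described as a gene of normal mammary epithelium that is often lost in breast cancer.

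Because the Klk1b genes are close copies, the transcripts were first compared at the length of the reads, 65 bases. The coding sequence of Klk1b3 was 88.5% identical to that of Klk1, 87.2% to that of Klk1b4, 89.4% to that of Klk1b5, and between 85.0% and 87.3% to those of Klk1b8, Klk1b22, Klk1b26 and Klk1b27. It was 86.0% identical to that of Klk1b24, the next gene upstream of Klk1b3, which is no member of the chosen set but is described with it below. Klk6 and Klk10 were far more distant, at 54.1% and 52.8%. The following window of exon 3 is shown because it holds the 18 differences, the most in any ungapped stretch of this length, that a read could use to tell Klk1b3 from Klk1b24. Capitals mark the bases that differ from Klk1b3. Coordinates are those of GRCm38, plus strand: chr7:44201317-44201381 for Klk1b3, chr7:44191430-44191494 for Klk1b24, chr7:44210720-44210784 for Klk1b4, chr7:44219675-44219739 for Klk1b5, chr7:44228593-44228657 for Klk1, chr7:44015941-44016005 for Klk1b26 and chr7:44055691-44055755 for Klk1b27.
Klk1b3: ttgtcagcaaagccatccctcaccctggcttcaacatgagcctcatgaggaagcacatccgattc
Klk1b24: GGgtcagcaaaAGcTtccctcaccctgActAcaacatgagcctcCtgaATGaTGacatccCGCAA
Klk1b4: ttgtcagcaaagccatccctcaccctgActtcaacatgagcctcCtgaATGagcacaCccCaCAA
Klk1b5: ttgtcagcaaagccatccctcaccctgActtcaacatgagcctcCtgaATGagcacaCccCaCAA
Klk1: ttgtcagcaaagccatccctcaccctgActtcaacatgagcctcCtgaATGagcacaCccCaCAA
Klk1b26: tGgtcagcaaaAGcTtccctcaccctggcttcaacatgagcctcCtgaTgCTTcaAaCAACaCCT
Klk1b27: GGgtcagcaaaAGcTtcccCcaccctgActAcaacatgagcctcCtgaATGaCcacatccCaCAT

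Klk1b4, Klk1b5 and Klk1 carried the same letters in this window, with 10 differences from Klk1b3. Klk1b8 and Klk1b22 are not shown because their alignment to Klk1b3 has a gap here. The opposite case is the start of the coding sequence, which runs over exons 1 and 2 and is letter for letter the same in Klk1b3 and Klk1b24, so that a read from it cannot be placed on either gene alone. It spans chr7:44198247-44200257 in Klk1b3 and chr7:44188273-44190283 in Klk1b24, the intron included.
Klk1b3 and Klk1b24, coding bases 1 to 65: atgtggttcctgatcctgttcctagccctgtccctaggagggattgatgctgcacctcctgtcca

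The longest coding stretch that Klk1b3 and Klk1b24 share without a difference was 71 bases. Over the whole transcript of Klk1b3, 70 of 825 windows of 65 bases (8.48%) were found exactly in the transcript of another kallikrein gene, and 15 of them (1.82%) in Klk1b24. With up to 2 mismatches, 37.7% of the windows matched another kallikrein and 8.97% matched Klk1b24. Most of the Klk1b3 sequence could thus be told from that of Klk1b24 at this read length. The exact share was 16.1% for Klk1, 12.6% for Klk1b4, 13.0% for Klk1b5 and for Klk1b8, 2.91% for Klk1b22, 9.15% for Klk1b26 and 7.76% for Klk1b27. Klk1b24 shared more, 21.4% of its 814 windows, of which 124 were found in Klk1b21. Klk6 and Klk10 shared no window, so their counts do not carry this uncertainty. No window of a member was found in a transcript outside the family. How reads that fit several genes were counted is not given in the sources used here, and the mice were FVB while the reference is that of C57BL/6J, so the counts of the single Klk1b genes remain uncertain to this extent.

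**Figure D1:**
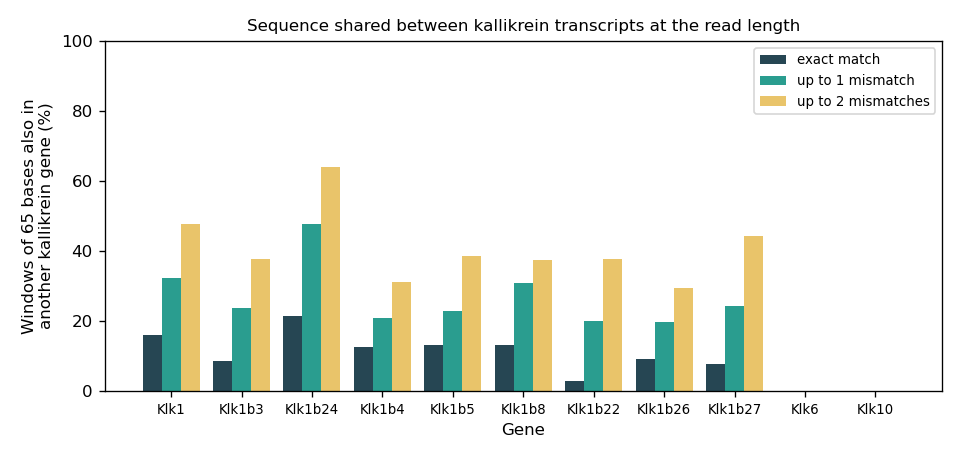
Share of the 65-base windows of each gene's transcripts (y axis, percent) that also occur in another kallikrein gene, for the chosen kallikreins and Klk1b24 (x axis), allowing no, 1 or 2 mismatches (bar colors). Klk1b24 has the highest bars, Klk1b3 shares 8.48% exactly and 37.7% with up to 2 mismatches, and Klk6 and Klk10 share none.

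Klk1b3 (ENSMUSG00000066515, chr7:44198191-44202352 in GRCm38, plus strand, 5 exons, protein coding) was low in E-cadHI cells and higher in the E-cadLO cells of every mouse. The E-cadHI libraries of mice 57, 58, 67 and 70 held 12, 1, 0 and 3 counts of Klk1b3, or 0.834, 0.0766, 0 and 0.263 CPM. The E-cadLO libraries of the same mice held 328, 25, 119 and 65 counts, or 24.3, 2.90, 7.99 and 4.53 CPM. The groups did not overlap, and mouse 57 had the highest Klk1b3 level in both of them.

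The mean level of Klk1b3 was 0.293 ± 0.377 CPM in E-cadHI and 9.93 ± 9.81 CPM in E-cadLO (SD, n = 4 each), so the spread between the E-cadLO libraries was as wide as their mean. The log2 ratio of E-cadLO to E-cadHI within a mouse, computed on CPM plus 0.5, was 4.22, 2.56, 4.09 and 2.72 in mice 57, 58, 67 and 70, with a mean of 3.40 (SD 0.876), and Klk1b3 was higher in E-cadLO in 4 of 4 mice. The fitted log2 fold change was 5.02 (SE 1.12) without the mouse in the model and 5.19 (SE 0.72) when the mouse was fitted as a replicate block. The ratio on CPM plus 0.5 understates a change from so low a level, which is why it lies below the fitted values. In bulk libraries, fewer cells that express a gene and less of its RNA per cell cannot be told apart.

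**Figure D2:**
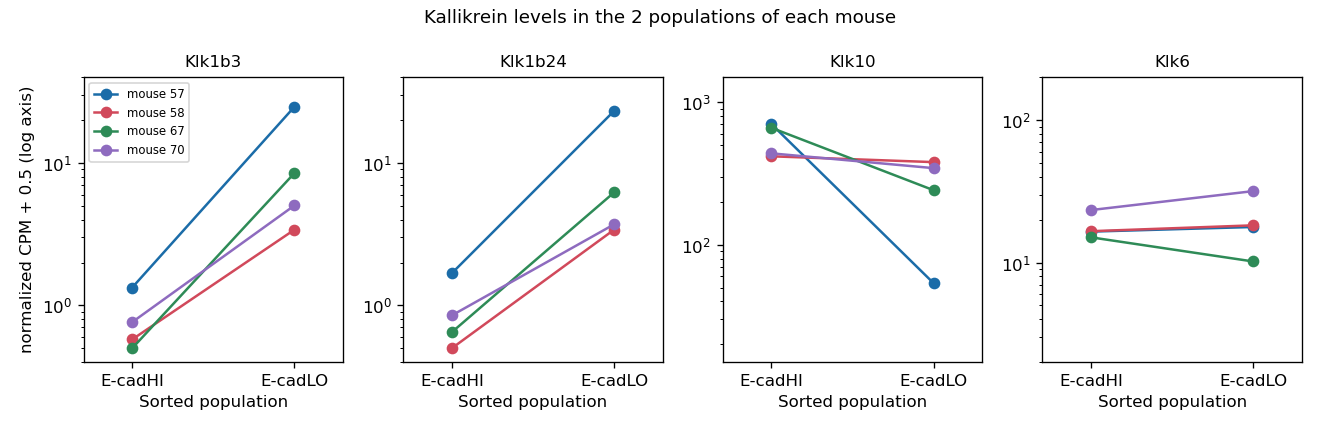
Levels of Klk1b3, Klk1b24, Klk10 and Klk6 (y axis, normalized CPM plus 0.5, log axis that spans the same factor in each panel) in the E-cadHI and E-cadLO libraries (x axis), with a line for each mouse. All 4 lines rise for Klk1b3 and Klk1b24, all 4 fall for Klk10, most steeply in mouse 57, and those of Klk6 go both ways.

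Klk1b24 (ENSMUSG00000063713, chr7:44188236-44192455), the upstream neighbor, followed Klk1b3 closely. It had 17, 0, 2 and 4 counts in the E-cadHI libraries of mice 57, 58, 67 and 70 and 306, 25, 85 and 46 in the E-cadLO libraries. Its level was 0.420 ± 0.528 CPM in E-cadHI and 8.62 ± 9.45 CPM in E-cadLO (SD, n = 4 each), again without overlap and again highest in mouse 57. Klk1b24 was higher in E-cadLO in 4 of 4 mice, with log2 ratios of 3.78, 2.77, 3.26 and 2.12. Its fitted log2 fold change was 4.32 (SE 1.14, edgeR quasi-likelihood test with Benjamini-Hochberg adjustment, adjusted p = 0.262). With the replicate block it was 4.49 (SE 0.67, edgeR adjusted p = 0.0363). Klk1b24 is described because it moved with Klk1b3, and its E-cadLO counts carried it past the filter on low counts. Both adjusted p values are therefore given as a description, and nothing is read from them.

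Across the 8 libraries, the Pearson correlation of log2(CPM + 0.5) of Klk1b24 with that of Klk1b3 was 0.990, a description over libraries that share their scaling and, for part of the sequence, possibly their reads. Of the counts of both genes together, Klk1b24 took 48.3% in the E-cadLO library of mouse 57 (95% exact binomial interval 44.3 to 52.2), 50.0% in mouse 58 (35.5 to 64.5), 41.7% in mouse 67 (34.8 to 48.8) and 41.4% in mouse 70 (32.2 to 51.2). These intervals overlap, so a difference between mice in the balance of both genes was not detectable at this depth. The intervals hold only the error of counting, as copies made by PCR cannot be told from separate molecules.

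Klk1b3 and Klk1b24 made up most of the Klk1 and Klk1b counts of E-cadLO cells. All genes of this branch summed to 46, 23, 3 and 27 counts in the E-cadHI libraries and to 650, 59, 242 and 145 counts in the E-cadLO libraries of mice 57, 58, 67 and 70. In E-cadLO, both genes together held 97.5%, 84.7%, 84.3% and 76.6% of these counts. What remained for all other copies was 17, 22, 1 and 20 counts in E-cadHI and 16, 9, 38 and 34 counts in E-cadLO, with no common direction over the mice. Summing the branch removes the effect of reads exchanged between its genes in the count table. It does not recover reads given to copies that the count table lacks, or any left out because they fit several genes. The sum was 3.20, 1.76, 0.222 and 2.36 CPM in E-cadHI and 48.2, 6.84, 16.2 and 10.1 CPM in E-cadLO. The fitted log2 fold change of the sum was 3.43 without and 3.30 with the replicate block, and the sum was called in neither edgeR fit.

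Transcription of neighboring copies starts downstream of related sequence. The 250 bases before the RefSeq start sites of Klk1b3 (GRCm38.p6, chr7:44197941-44198190, plus strand) and Klk1b24 (chr7:44187986-44188235, plus strand) are given because these genes moved together. Capitals mark bases of Klk1b24 that differ from the Klk1b3 window, or have no partner in it, in a global alignment.
Klk1b3: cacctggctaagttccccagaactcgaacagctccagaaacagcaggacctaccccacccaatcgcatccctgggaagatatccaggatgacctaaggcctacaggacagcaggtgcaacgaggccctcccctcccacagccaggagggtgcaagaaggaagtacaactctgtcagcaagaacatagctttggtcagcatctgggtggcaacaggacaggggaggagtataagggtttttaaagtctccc
Klk1b24: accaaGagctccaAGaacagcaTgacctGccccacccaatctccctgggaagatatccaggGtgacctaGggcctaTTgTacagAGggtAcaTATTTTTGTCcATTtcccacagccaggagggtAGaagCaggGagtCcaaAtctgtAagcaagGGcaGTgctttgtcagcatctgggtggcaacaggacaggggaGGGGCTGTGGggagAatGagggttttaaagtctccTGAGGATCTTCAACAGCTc

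Both windows were 65.8% identical, with bases that have no partner counted as different. The same value of Klk1b3 was higher with Klk1b27 (74.0%), Klk1b21 (71.0%) and Klk1b26 (70.3%), whose counts were low in both groups. The windows end at annotated start sites, which can be offset against the shared sequence. These values therefore also depend on where the start sites were placed, and no order of likeness is read from them. The letters TTTAAA, searched on both strands, were found in the Klk1b3 window at position -13 from the start site and in the Klk1b24 window at position -31. They occurred in 12 of 28 Klk windows and in 12.1% of all 32851 RefSeq windows of this length. The letters AGAACA, a core of steroid receptor elements, were found at -72 in Klk1b3 and -237 in Klk1b24, and also at -245 and -187 in Klk10 and at -44 in Klk6. AGAACA or its reverse complement TGTTCT was present in 7 of 28 Klk windows and in 16.1% of all windows. A match of letters is no measure of binding.

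The other Klk1 and Klk1b members were too low for the filter of the fit, and are given as counts. Klk1 had 0, 0, 0 and 10 counts in the E-cadHI libraries of mice 57, 58, 67 and 70, and 1, 2, 15 and 28 counts in the E-cadLO libraries. Its summed counts, 10 against 46, gave a depth-scaled ratio of E-cadLO to E-cadHI of 4.85 (95% counting interval 2.41 to 10.8), with most counts in mice 67 and 70 and not in mouse 57, where Klk1b3 was highest. Klk1 thus did not follow the order of mice seen for Klk1b3.

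Klk1b4 had 0, 1, 0 and 0 counts in E-cadHI and 3, 1, 7 and 0 in E-cadLO, a ratio of 11.6 (1.69 to 499). Klk1b5 had no count in any E-cadHI library and 4, 3, 6 and 0 counts in E-cadLO. Set against a floor of 3 counts for the E-cadHI group as a whole, this was a depth-scaled ratio of 4.57. That ratio leaves out the counting error of the E-cadLO counts, so it is no lower limit. Klk1b26 had 0, 1, 0 and 1 counts in E-cadHI and 4, 0, 7 and 1 in E-cadLO, a ratio of 6.32 (1.41 to 58.2). The counts of these 3 genes in E-cadLO were highest in mouse 67 and at most 7 in a library. Klk1b4 and Klk1b5 share 2.30% and 2.67% of the windows of Klk1b3 exactly, and the part of shared reads in such low counts was not tested.

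Klk1b27 went the other way, with 15, 6, 0 and 5 counts in E-cadHI and 3, 3, 1 and 1 in E-cadLO, a ratio of 0.324 (0.127 to 0.738). In mouse 67, however, Klk1b27 had 0 counts in E-cadHI and 1 in E-cadLO. Klk1b8 had 6 counts in the E-cadHI library of mouse 58 and 1 in the E-cadLO library of mouse 70, and was otherwise at 0. Klk1b22 had 2 and 1 counts in the E-cadHI libraries of mice 58 and 70 and 1 in the E-cadLO library of mouse 67. For Klk1b8 and Klk1b22, a difference between the groups was not detectable at this depth. All counting intervals of these low genes leave out the spread between mice.

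**Figure D3:**
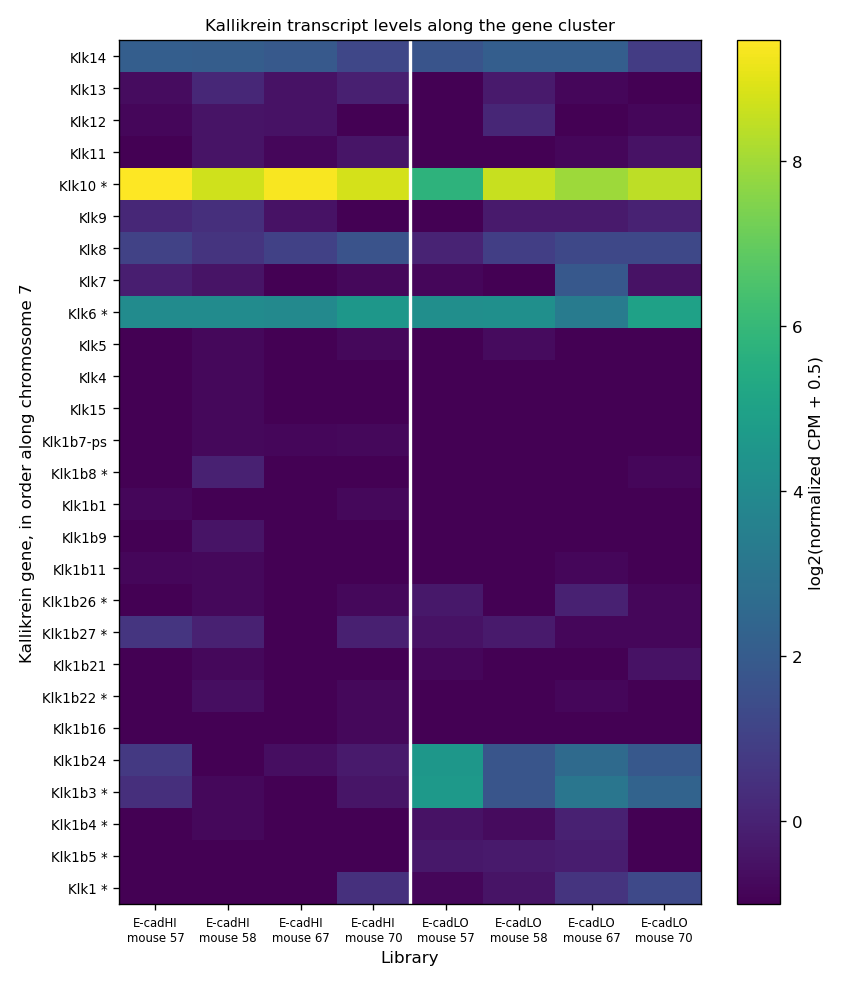
Level of the 27 Klk genes of the count table (rows, in their order along chromosome 7, the 10 chosen kallikreins with an asterisk) in the 8 libraries (columns, white line between the groups), as log2 of normalized CPM plus 0.5 (color). Klk10 is the brightest row in both groups, Klk6 is even, and Klk1b24 and Klk1b3 are dark in E-cadHI and lighter in all 4 E-cadLO libraries, while the rows around them stay dark.

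Klk10 (ENSMUSG00000030693, chr7:43781035-43785410) was the main kallikrein transcript of these tumor cells and was lower in E-cadLO. Its E-cadHI levels were 702, 417, 661 and 438 CPM in mice 57, 58, 67 and 70, against 53.1, 380, 241 and 344 CPM in E-cadLO. The groups did not overlap, though mouse 58 and mouse 70 differed little between their populations. The means were 554.5 ± 148 CPM in E-cadHI and 254 ± 147 CPM in E-cadLO (SD, n = 4 each).

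Klk10 was lower in E-cadLO in 4 of 4 mice, with log2 ratios of -3.71, -0.14, -1.46 and -0.35. The fitted log2 fold change was -1.12 (SE 0.50), or -1.33 (SE 0.57) with the replicate block, and -0.68 when mouse 57 was left out. The E-cadLO library of mouse 57 set much of the value. Klk10 held 43.6% of all kallikrein counts there, against 87.2% to 92.4% in the other E-cadLO libraries and 93.5% to 97.0% in E-cadHI. This share is no measure of Klk10 alone, as 634 of the 1645 kallikrein counts of that library were Klk1b3 and Klk1b24. The epithelial markers were also lower in that library, with a log2 ratio of -0.84 for their sum in mouse 57 and of 0.28, 0.47 and -0.19 in mice 58, 67 and 70. Relative to the sum of these markers, the log2 ratio of Klk10 was -2.88, -0.42, -1.92 and -0.16, below 0 in each mouse. Krt8 and Krt18 made up most of that sum in every library. In mouse 70, where Klk10 had a log2 ratio of -0.35, the ratio was -0.73 for Epcam and -0.86 for Cdh1. It was -0.05 for Krt8 and -0.02 for Krt18, so the sign relative to single markers depended on the marker. Over the 8 libraries, Klk10 and Klk1b3 correlated at a Pearson r of -0.844 on the log2 scale, as a description of libraries that fall into both groups.

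Klk6 (chr7:43824499-43832030) was expressed evenly. Its levels were 15.98, 16.1, 14.5 and 22.9 CPM in the E-cadHI libraries of mice 57, 58, 67 and 70 and 17.3, 17.7, 9.67 and 31.2 CPM in the E-cadLO libraries. The E-cadHI range lay within the E-cadLO range, with mouse 70 highest in both groups. The log2 ratios of 0.11, 0.14, -0.56 and 0.44 did not share a direction, and the fitted log2 fold change was 0.13 (SE 0.35), or 0.03 with the replicate block.

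Oligodendrocyte transcripts were higher in E-cadLO in sum in 4 of 4 mice. The summed level of 10 oligodendrocyte markers ran from 561 to 8626 CPM in E-cadHI and from 1320 to 34580 CPM in E-cadLO, with log2 ratios of 1.23, 1.20, 2.15 and 2.003 in mice 57, 58, 67 and 70. Klk6 was lower in E-cadLO in mouse 67 and highest relative to E-cadHI in mouse 70, the mice with the largest ratios of these markers, and the part of oligodendrocytes in the Klk6 level was not tested.

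Per kilobase of exon, the mean level was 404 CPM for Klk10, 11.5 CPM for Klk6 and 0.330 CPM for Klk1b3 in E-cadHI. In E-cadLO it was 185 CPM for Klk10, 12.5 CPM for Klk6 and 11.2 CPM for Klk1b3. Klk10 was the highest of the 3 in both groups, and in E-cadLO the means of Klk1b3 and Klk6 differed by less than the spread of either between mice. The means of the 7 low members are not ranked.

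Of the 10 members, 3 passed the filter on low counts (Klk1b3, Klk6 and Klk10), so the counts below do not cover all members. Klk1b3 passed it through its E-cadLO libraries. In the fit without the mouse, none of the 3 passed an adjusted p of 0.05, where 0% of the 13598 tested genes were called higher and 0% lower. By the same edgeR fit, 1109 genes were higher and 790 lower at an unadjusted p under 0.05. With the replicate block, 1 of the 3 (Klk1b3) was called higher, as were 0.728% of all tested genes, and 0 of 3 lower, as were 0% of all tested genes. By log2 fold change, Klk1b3 ranked 3 and Klk1b24 ranked 8 among the 99 called genes. Among all tested genes they ranked 3 and 13 in this fit, and 24 and 41 in the fit without the mouse. Libraries of both groups did not overlap for 1 member that was higher in E-cadLO (3.9% of all tested genes) and for 1 that was lower (4.2%). Since this contrast picked Klk1b3, nothing is read from these counts and ranks.

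The size of the Klk1b3 difference moved little when single mice were left out, with a fitted log2 fold change between 4.76 and 5.43 without the block and between 4.66 and 5.62 with it. With the replicate block, Klk1b3 was among the called genes without mouse 57 and not without mouse 58, 67 or 70, fits in which 63, 0 and 2 genes in all were called higher. For Klk1b24, again as a description, the edgeR adjusted p with the block was 0.0243 without mouse 57 and 0.0581 without mouse 58. It was 0.310 without mouse 67 and 0.136 without mouse 70.

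Among the 17 other Klk genes, Klk14, Klk8 and Klk1b24 passed the filter. Klk14 lay between 1.84 and 3.89 CPM in E-cadHI and between 1.32 and 3.83 CPM in E-cadLO, with a fitted log2 fold change of -0.13. Klk8, or neuropsin, lay between 0.996 and 2.71 CPM in E-cadHI and between 0.519 and 1.88 CPM in E-cadLO, with a value of -0.27. Both overlapped between the groups, so among the tested kallikreins an increase in all 4 mice was seen for Klk1b3 and Klk1b24. Klk1, too low for the fit, was also higher in 4 of 4 mice, with log2 ratios of 0.20, 0.55, 1.59 and 0.83. Such a pattern was common, as 2286 of all 13598 tested genes were higher and 1928 lower in all 4 mice. Klk7 was too low for the fit and had 10 counts in E-cadHI and 52 in E-cadLO, of which 48 came from the library of mouse 67.

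The genes that flank the kallikrein cluster were read from the same fits. Within the cluster and 250000 bases on either side, 28 other genes were in the table and 11, all outside the cluster, were tested, of which 0 were called in either direction with edgeR, without or with the replicate block. Their median log2 fold change was 0.63, or 0.28 with the block, against 0.07 and 0.03 over all tested genes. Without mouse 57 it was 0.06, or 0.02 with the block. Klk1b4, Klk1b5 and Klk1, the next genes downstream of Klk1b3, had at most 28 counts in a library, against up to 328 for Klk1b3 and 306 for Klk1b24.

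Genes outside the family that varied most like Klk1b3 over the 8 libraries were sought by the Pearson correlation of log2(CPM + 0.5). The 5 highest were Coq10b (r = 0.990), a coenzyme Q binding protein of mitochondria, Soat2 (0.988), which esterifies cholesterol, the pseudogene Gm12260 (0.987), Cox6a2 (0.986), a muscle and heart subunit of cytochrome c oxidase, and Nfkbie (0.985), an inhibitor of NF-kappaB. All were highest in the E-cadLO library of mouse 57. Soat2 had 5.49, 2.22, 1.33 and 2.36 CPM in E-cadHI and 71.1, 10.8, 32.3 and 10.7 CPM in E-cadLO. Cox6a2 had 1.81, 0.766, 0.741 and 1.40 CPM in E-cadHI and 35.0, 4.52, 20.5 and 12.1 CPM in E-cadLO. The mean log2 ratio within a mouse was 1.29 for Coq10b, 2.94 for Soat2, 3.20 for Gm12260, 3.19 for Cox6a2 and 2.22 for Nfkbie. Each was higher in E-cadLO in 4 of 4 mice, and the likeness of the 8 libraries is a description chosen from all tested genes.

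**Figure D4:**
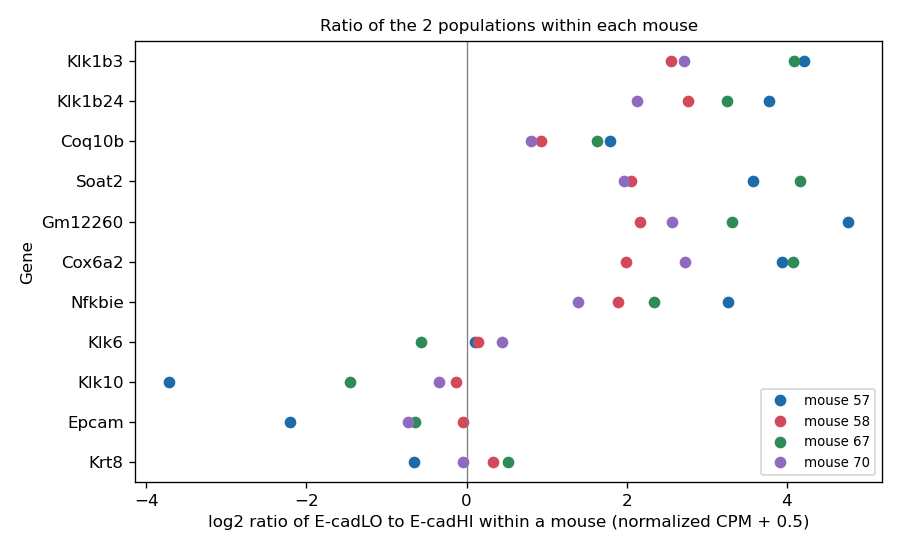
Log2 ratio of E-cadLO to E-cadHI within each mouse (x axis, from normalized CPM plus 0.5) for Klk1b3, Klk1b24, the 5 other genes that varied most like Klk1b3, Klk6, Klk10 and the epithelial markers Epcam and Krt8 (y axis), with mice as colored points. Points of Klk1b3 lie between 2.56 and 4.22, those of Klk10 between -3.71 and -0.14, and those of Klk6 on both sides of 0.

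Genes on which kallikreins act, or that act with them, were read from the same fits. None of the genes in the following 6 lists was called by edgeR in either direction, without or with the block. Of 14 genes of the kinin system, 6 were tested, with a median log2 fold change of 1.11, or 0.68 with the block. Without mouse 57 these medians were 0.01 and -0.06. Of these genes, the peptidase neprilysin (Mme) was at 180.5 CPM in the E-cadLO library of mouse 57 and between 3.02 and 11.8 CPM in all others. Cpm, a carboxypeptidase that trims kinins, had 1.60, 2.38, 0.741 and 1.66 CPM in E-cadHI and 18.0, 3.94, 9.80 and 12.7 CPM in E-cadLO, with a log2 fold change of 2.80 (edgeR adjusted p = 0.218). Cpm did not overlap between the groups, while Mme did. Neither kininogen gene, Kng1 nor Kng2, passed the filter.

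Of 8 substrates of growth factor or renin processing and their receptors, 4 were tested, with a median of 0.25, or 0.08 with the block. Egfr lay between 20.4 and 26.9 CPM in E-cadHI and reached 83.9 CPM in the E-cadLO library of mouse 57. Of 4 protease-activated receptors, F2r and F2rl1 were tested, with a median of 1.01 (0.31 with the block). F2r was at 69.3 CPM in that same library and at most 4.41 CPM in the other E-cadLO libraries, and without mouse 57 the medians of both lists were -0.13 and -0.31.

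Of 18 protease inhibitors, 12 were tested, with a median of 0.35 that was -0.03 with the block and 0.03 without mouse 57. Spint2, an inhibitor of trypsin-like proteases of epithelia, was at 694.5, 510, 546 and 544 CPM in E-cadHI and at 258.5, 577, 358 and 344 CPM in E-cadLO. Of 16 other trypsin-like proteases, 13 were tested, with a median of -0.06 (-0.13 with the block). The list held both directions. Htra1, a secreted protease, had the highest mean level, with 2.78 to 48.5 CPM in E-cadHI and 19.7 to 928 CPM in E-cadLO, the most in mouse 57. It was higher in E-cadLO in 4 of 4 mice, with a log2 fold change of 4.14 (2.90 with the block), and the plasminogen activators Plau (2.15) and Plat (3.01), named after their values were seen, were higher in 4 and 3 of 4 mice. The epithelial proteases St14 and Prss8 had log2 fold changes of -0.19 and -0.57.

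Salivary gland markers were mixed. Of 10 duct and acinar markers, 6 were tested, with a median log2 fold change of -0.95, or -0.90 with the block. Ascl3, a transcription factor of duct cells named after its values were seen, went the other way and did not overlap between the groups. It lay between 0.0695 and 0.383 CPM in E-cadHI and between 1.32 and 4.15 CPM in E-cadLO, higher in 4 of 4 mice, with a log2 fold change of 3.22 (SE 0.75, edgeR adjusted p = 0.252, or 0.129 with the block). Smgc and Bpifa2, known transcripts of that gland, were at or below 0.148 and 0.153 CPM in every library, and their counts were under the floor. Aqp5, which mammary and other gland epithelia also express, was at 203 to 312 CPM in E-cadHI and 79.3 to 201 CPM in E-cadLO.

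Markers of brain cell types had positive median log2 fold changes. Of 10 markers of microglia and macrophages, 10 had a log2 fold change above 0, with a median of 2.13, and with the replicate block edgeR called 5 higher, with P2ry12, Cx3cr1, Ctss and Itgam among them. Their summed level was 39.0 to 323 CPM in E-cadHI and 242 to 1095 CPM in E-cadLO. All 8 neuron markers were above 0 as well (median 1.82, with Snap25 called with the block), at 3.89 to 71.4 CPM in sum in E-cadHI and 25.6 to 277 CPM in E-cadLO. Of 10 oligodendrocyte markers, 9 were above 0 (median 1.92, with Mbp and Mobp called with the block), as were all 8 astrocyte markers (median 1.72, with Gfap, Slc1a3 and S100b called with the block). In mouse 57, which had the most Klk1b3, the E-cadLO sum of each of these lists was the lowest of the group. It was 242 CPM for microglia and macrophages, 25.6 CPM for neurons, 1320 CPM for oligodendrocytes and 721 CPM for astrocytes. The log2 ratios of these sums within mouse 57 were 2.63, 2.72, 1.23 and -0.66. Single markers did not all follow their sum. In E-cadLO, Itgam was highest in mouse 57, at 117 CPM against 41.6, 65.3 and 34.8 CPM in mice 58, 67 and 70. P2ry12, Cx3cr1 and Ctss were lowest in mouse 57.

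The 6 tested endothelial markers of 8 had a median of 1.17, with 0 called by edgeR in both fits. The 2 tested neutrophil markers of 7 went opposite ways, S100a8 at -1.03 and Csf3r at 2.09, for a median of 0.53, also with 0 called. Fibroblast markers, of which 6 of 7 were tested and 0 called, had a median of 5.62 that was 2.75 with the block. Without mouse 57 it was 1.33, or 1.24 with the block. Their sum was 6.74 to 20.5 CPM in E-cadHI and reached 1179 CPM in E-cadLO, in mouse 57, the library with the most Klk1b3. No marker of any of these lists was called without the block. The 10 epithelial markers had a median of -0.17 (-0.25 with the block), and 0 were called. The part of other cell types in the Klk1b3 and Klk10 values was not tested.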

How the data were processed

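FACS-sorted E-cadHI and E-cadLO cells of 4 mice gave 8 mRNA libraries. The authors sequenced single reads of 65 bases, mapped them to GRCm38 with Hisat 2.1.0 and deposited counts per gene, without normalization; the labels name HTSeq and the paper's methods Icount for the counting. Strand use and the handling of reads that fit several genes are not given in the sources used here. Deposited counts without a gene identifier (365 entries, 0.0445% to 0.12% of counts per library) were left out.

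Counts were fitted with edgeR 4.0.16 (R 4.3.3; TMM, filterByExpr, quasi-likelihood test, Benjamini-Hochberg adjustment over 13598 genes, threshold 0.05), with the condition alone, as the paper's methods name no pairing, and with a replicate block for the mouse. The SE of a fitted log2 fold change is its absolute value divided by the square root of the F statistic of the edgeR test. The mouse numbers come from the labels, and deviations from the group means correlated at 0.275 to 0.698 within the 4 pairs and at most at 0.153 between mice. The fits were tested on simulated data. DESeq2 1.42.0, other filters, scaling and pseudocounts (0.1 and 2 CPM), and leaving out each mouse were alternatives.

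Transcripts were those of GENCODE M21, start-site windows those of RefSeq (all 10 members matched); alignments used Biopython 1.88. The members and gene lists were chosen with earlier results of these data known. Named genes were the members, Klk genes that passed the filter, the 5 genes most like Klk1b3, up to 4 members of a list by mean level, and genes a result turned on.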

Additional observations from a re-analysis of the deposited data

Results flagged for a closer look

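Among the kallikreins, 26 groups of 4 libraries were examined for a single library far from the other 3, by Dixon's criterion at 95%, and 6 met it. Chance flags about 1 in 20 groups of continuous values, a rate that does not hold for 5 of the 6, in which 3 libraries at 0 fix the criterion whatever the count of the other. Klk1b24 was at 22.7 CPM in the E-cadLO library of mouse 57, far above the other E-cadLO libraries. The other 5 rest on at most 10 counts. Klk1 was at 0.875 CPM in the E-cadHI library of mouse 70 and at 0 in the other E-cadHI libraries. Klk1b8 was at 0.460 CPM in the E-cadHI library of mouse 58 and at 0.0697 CPM in the E-cadLO library of mouse 70. Klk1b4 was at 0.0766 CPM in the E-cadHI library of mouse 58, and Klk1b22 at 0.0671 CPM in the E-cadLO library of mouse 67. In each of these groups, the other libraries were at 0.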

How the results depend on the processing

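Of 340 alternative values, 286 stayed on their side and within the limits set for a change, 54 moved and 0 turned their direction as a called value. Against 0 called genes in either direction without a block, edgeR with the replicate block called 99 higher, edgeR without a filter 23 higher, DESeq2 298 higher and 61 lower, and DESeq2 with the replicate block 1030 higher and 225 lower. Without 1 mouse, the replicate block gave 0 to 425 higher and 0 to 24 lower calls (425 and 24 without mouse 57, 63 and 3 without mouse 58, 0 and 0 without mouse 67, 2 and 0 without mouse 70), alternatives chosen after the values were seen, as was the scaling of Klk10 to epithelial markers. Klk1b3 was called by DESeq2 and by both fits with the block. It was not called by edgeR without a filter, and requiring 10 counts or more in each library removed it and Klk1b24. The cause of these differences was not tested. The mean log2 ratio of Klk1b3 within a mouse was 4.70 with a pseudocount of 0.1 CPM and 2.08 with 2 CPM, against 3.40. The share of Klk1b3 windows found in another kallikrein rose from 8.48% to 23.6% with 1 mismatch and 37.7% with 2. Depth limits the low members, which have at most 28 counts in a library.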
